A study of Mus musculus with 12 samples.

Results

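The comparison described here set 3 libraries of leukemic T cells carrying a Notch1 mutant against 3 libraries of the same cells carrying empty vectors, which is 6 of the 12 libraries of the series. It asked what the mutant changed in these cells without added Zmiz1. All 12 libraries were RNA sequencing libraries of 8946, a mouse line of T lymphoblastic leukemia/lymphoma, transduced with a pair of retroviral vectors and sorted for both vector markers, GFP and NGFR. Notch1-titled cells received the Notch1 mutant L1601P, in a vector that also encodes GFP, with the empty NGFR vector. Control cells received the empty GFP vector, MigR1, with the empty NGFR vector. The mutant was also added on top of a Zmiz1 vector in the series (combined against Zmiz1-titled cells, 3 libraries each), and those 6 libraries are used as a second look at the same mutant. Whether Notch1-titled and combined cells came from separate transductions with the mutant is not stated. Genes were taken as members when their mean FPKM (sequenced fragments per length of transcript and sequencing depth) over all 12 libraries was at least 1, which kept 10152 of 23284 gene symbols, while 6449 symbols were at 0 in every library.

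The groups follow the titles and the column headers. The cell line label of the Notch1-titled libraries reads MigR1/Zmiz1 and that of the Zmiz1-titled libraries reads L1601P/NGFR, the opposite of their titles. Notch1 had 32.0, 42.2 and 22.1 FPKM in the Notch1-titled libraries, against 1.91, 1.97 and 1.8 FPKM in the control libraries. Zmiz1 had 0.22, 0.221 and 0.194 FPKM in the Notch1-titled libraries, against 0.18, 0.17 and 0.176 FPKM in the control libraries. The vector genes thus went with the titles, and what the Notch1 level counts is reads that aligned to the mouse gene, with no statement in the labels of the species or length of the insert. Both groups came from 1 leukemia line, whose driver the labels do not name, and the Notch1-titled cells expressed the mutant from a vector and not from the gene's own locus. Whether the 3 replicates came from separate transductions is not stated. Each p then reflects the spread among these libraries alone, which may be technical.

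Notch1 is a surface receptor whose cleaved intracellular part enters the nucleus, joins the DNA-binding protein RBPJ and activates transcription. Mutations in its heterodimerization domain allow cleavage without a ligand and are common in T cell acute lymphoblastic leukemia. In developing thymocytes Notch1 signals sustain T lineage commitment, expression of the pre-T cell receptor and metabolic growth.

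Depth is known only in relative terms, since the files hold no counts. The spacing of low values in 1040 genes put Zmiz1-titled replicate 2 lowest, at 0.769 of the typical depth, and Notch1-titled replicate 1 highest, at 1.25, and all FPKM sums lay between 549098 and 606908. The same shallow library correlated least with the rest (mean r across genes of 0.942, where the others reached up to 0.957), and it enters the shared variance of the tests below. All 10 T cell markers passed the filter, with summed levels of 6723 to 7454 FPKM in Notch1-titled and 6628 to 6854 FPKM in control libraries. The B cell, NK cell and fibroblast marker lists had no member above the filter, and their summed levels were at most 0.513, 0.431 and 1.86 FPKM in Notch1-titled and 0.512, 0.541 and 1.71 FPKM in control libraries. The myeloid list held 1 gene above the filter, Itgam, and the erythroid list 1. In such bulk samples, fewer cells expressing a gene and less RNA per cell cannot be told apart. Ngfr, the marker of the second vector, had 61.4, 77.0 and 80.3 FPKM in Notch1-titled and 82.8, 83.8 and 88.9 FPKM in control libraries and was not called (log2 fold change -0.23, limma adjusted p = 0.174).

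Of 10152 genes tested, 324 rose and 233 fell in Notch1-titled against control libraries, or 3.19% and 2.3%, together 557 genes or 5.49% (limma on log2(FPKM + 1), Benjamini-Hochberg adjusted p under 0.05, which is what "called", "rose" and "fell" mean throughout). These shares are the background for each list count below. Most changes were modest. The median absolute log2 fold change of the 557 called genes was 0.42, and 346 of the 557 moved by less than 0.5. Changes of at least 2-fold numbered 30 upward and 7 downward. Rising genes were 58.2% of the calls as scaled by the authors, but median ratio scaling gave 266 rising and 287 falling genes and quantile normalization 271 rising and 300 falling, so which direction is the more frequent is set by the scaling. Leaving out Notch1-titled replicate 2 reduced the 557 calls to 358, leaving out control replicate 1, 2 or 3 reduced them to 291, 268 or 276, and leaving out Zmiz1-titled replicate 2 raised them to 981.

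Promoter sequences are shown for genes that rose in 3 of the groups described below, because each group has a known control element. They are RefSeq sequences of build GRCm38.p6, taken from the window of 250 bases before to 50 bases after each start site and printed 5′ to 3′ along the gene's strand. Capitals mark the ER stress element, which is CCAAT, 9 further bases and CCACG or its reverse complement. It is the element that ATF6 and XBP1 are known to use with NF-Y. The first 4 genes encode proteins of the endoplasmic reticulum that rose.
Hspa5 (chr2:34772000-34772068, plus strand): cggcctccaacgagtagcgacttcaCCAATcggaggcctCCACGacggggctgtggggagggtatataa
Pdia6 (chr12:17266466-17266534, plus strand): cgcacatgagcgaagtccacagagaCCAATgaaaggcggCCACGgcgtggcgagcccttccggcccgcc
Creld2 (chr15:88819495-88819563, plus strand): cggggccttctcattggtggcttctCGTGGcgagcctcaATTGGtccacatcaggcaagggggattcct
Dnajc3 (chr14:118937802-118937870, plus strand): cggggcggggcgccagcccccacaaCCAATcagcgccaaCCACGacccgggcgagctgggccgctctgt
In the next line capitals mark TGATGAAA, a form of the amino acid response element that ATF4 is known to bind.
Asns (chr6:7693200-7693257, minus strand): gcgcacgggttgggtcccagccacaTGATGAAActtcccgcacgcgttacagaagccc
In the last line capitals mark TGGGAA, the core of RBPJ sites.
Ptcra (chr17:46763714-46763821, minus strand): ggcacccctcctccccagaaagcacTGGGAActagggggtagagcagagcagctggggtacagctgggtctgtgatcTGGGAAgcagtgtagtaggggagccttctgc

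Known Notch target genes moved in both directions, and the largest response among them belonged to genes that were nearly silent in the control. Ptcra, which encodes the alpha chain of the pre-T cell receptor, had 4.37, 5.65 and 5.85 FPKM in Notch1-titled libraries, against 0.379, 0.645 and 0.64 FPKM in control libraries (log2 fold change 2.01 ± 0.12 SE, limma adjusted p = 4.89e-06). Dtx1, a ubiquitin ligase of the pathway, had 1.48, 1.9 and 1.83 FPKM in Notch1-titled libraries and was listed at 0 in all 3 control libraries. Notch3, a receptor gene that Notch1 is known to induce, had 1.63, 1.94 and 1.22 FPKM in Notch1-titled and 0.0408, 0.0937 and 0.0698 FPKM in control libraries. For these genes no control library came near the lowest Notch1-titled library. Dtx1 and Notch3 fell below the filter and passed in an unfiltered fit (limma adjusted p = 9.44e-07 and 2.46e-05), which called 3.56% of 16835 genes.

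**Figure D1:**
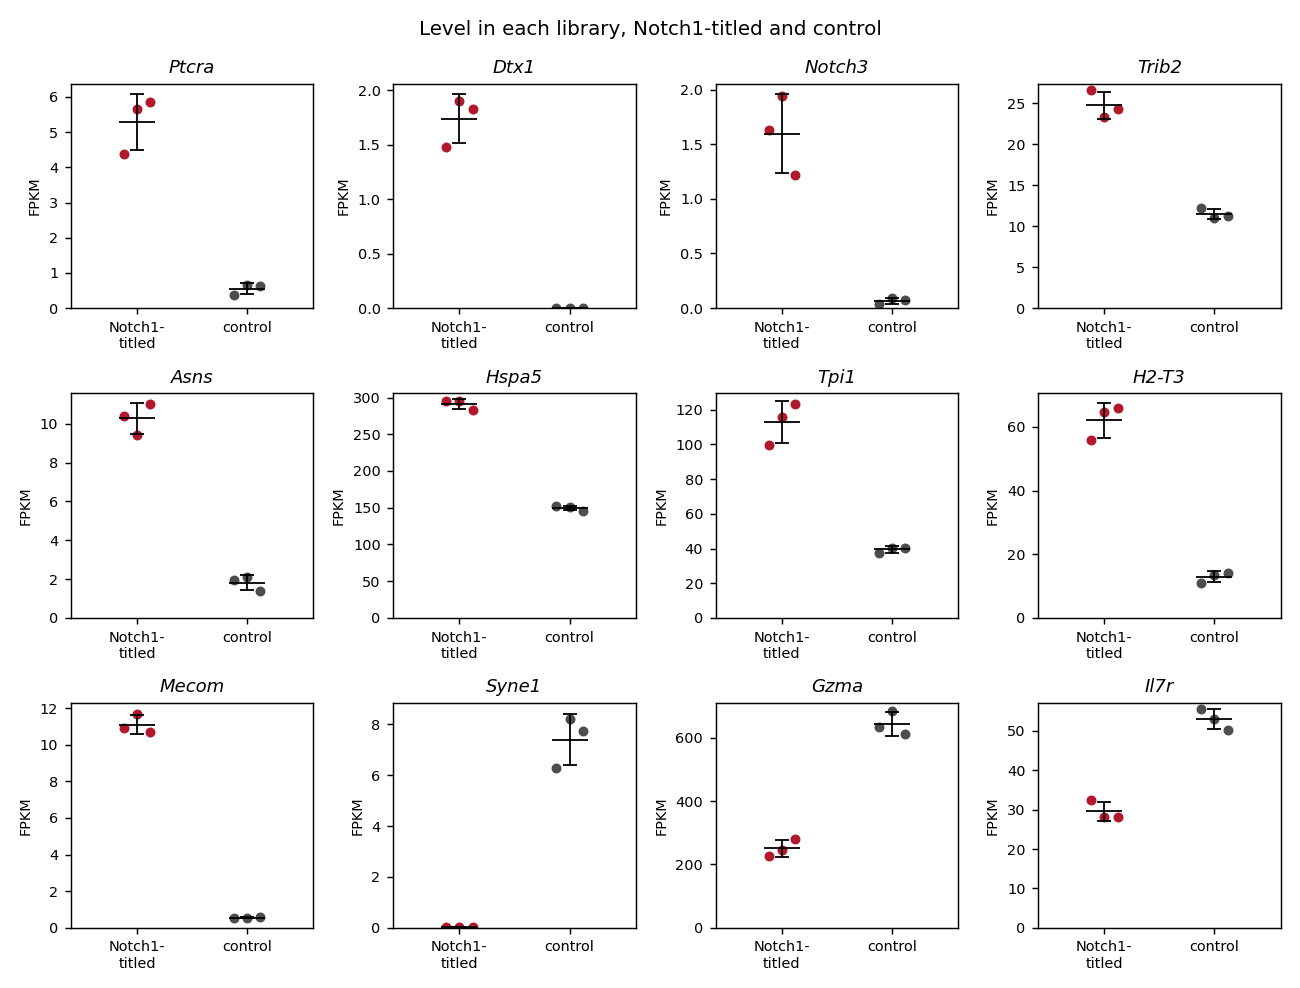
FPKM (linear axis from 0) of 12 genes in each of the 3 Notch1-titled libraries (red, left) and 3 control libraries (grey, right); lines are the mean ± SD of 3 libraries. The 12 are called genes (Dtx1 and Notch3 in the fit without the filter), and their groups do not overlap. The same was so for all 557 called genes and for 26.1% of all tested genes. Ptcra lay at 4.37 to 5.85 against 0.379 to 0.645 and Syne1 at 0.0116 to 0.042 against 6.27 to 8.21.

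Other targets started from a substantial level. Trib2, a pseudokinase that drives leukemia in mice, had 26.6, 23.3 and 24.3 FPKM in Notch1-titled and 12.2, 11 and 11.2 FPKM in control libraries (1.04 ± 0.10). Ccnd3, the D-type cyclin of dividing thymocytes, had 749, 768 and 805 FPKM in Notch1-titled and 533, 516 and 531 FPKM in control libraries (0.55 ± 0.06). Both rose, and Ccnd3 was by far the most abundant of the targets that did. Myc, a transcription factor of growth that Notch1 induces in T cell leukemia, had 0.721, 0.811 and 0.887 FPKM in Notch1-titled and 0.0828, 0.106 and 0.0274 FPKM in control libraries. It rose (0.75 ± 0.10, limma adjusted p = 0.00141), although its adjusted p was 0.409 under quantile normalization. Its level stayed under 1 FPKM in every Notch1-titled, control and Zmiz1-titled library. Myc thus passed the filter only through the combined libraries, which are outside this comparison. Il7r, the interleukin-7 receptor alpha chain and a gene that Notch activates in early T cells, was the called target that fell, with 32.4, 28.2 and 28.1 FPKM in Notch1-titled and 55.5, 53.1 and 50.3 FPKM in control libraries (-0.82 ± 0.08).

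Across the 22 listed Notch targets, 12 were tested, of which 4 rose and 1 fell. The 4 include Myc, which passed the filter only through the combined libraries. The median of the 12 was -0.04 against 0.02 over all tested genes, and it was 0.14 without Notch1-titled replicate 3. With the filter at 5 FPKM 10 were tested and 2 rose. The 10 members under the filter include Dtx1 and Notch3. Hes1, a target in many tissues, was listed at 0 in every library. Nrarp, a feedback inhibitor, stayed at 0.122 to 0.277 FPKM in Notch1-titled and 0.139 to 0.234 FPKM in control libraries. Il2ra, the interleukin-2 receptor alpha chain, had 0.533, 0.524 and 0.498 FPKM in Notch1-titled and 0.286, 0.295 and 0.256 FPKM in control libraries. Its groups did not overlap, as was so for 26.1% of all tested genes, and in the fit without the filter it was not called (0.25, limma adjusted p = 0.0549). Gata3, a T lineage factor, was not called either (-0.22 ± 0.12). TGGGAA occurred in 25.6% of 32851 RefSeq promoter windows, in 28.3% of genes, and in 5 of 18 listed targets with a window (27.8%), Ptcra among them with a pair of matches.

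No tested gene on the list of the pathway's apparatus was called, where 5.49% of all tested genes were, so 0 of 21 is near that share. Notch1, the gene of the vector, was not on this list and rose (3.47 ± 0.17, limma adjusted p = 1.18e-06). Notch3, a receptor gene, was counted among the targets. None of 21 tested genes for receptors, gamma-secretase subunits, the RBPJ complex and glycosyltransferases was called in either direction with limma (3 had an unadjusted p under 0.05), and at their extremes stood Psen2, a presenilin (-0.30, adjusted p = 0.0957), Ep300, a coactivator (-0.28, adjusted p = 0.291), and Rfng, a Fringe glycosyltransferase (0.24, adjusted p = 0.507). Psen2 was called when control replicate 2 was left out (limma adjusted p = 0.049). The list's median was -0.01.

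Endoplasmic reticulum folding genes rose as a broad group. Of 31 tested members of the folding and unfolded protein response list, 20 rose and 1 fell, against 3.19% and 2.3% of all tested genes, with a median of 0.41. Hspa5, the main ER chaperone (BiP), had 295, 295 and 283 FPKM in Notch1-titled and 152, 151 and 146 FPKM in control libraries (0.96 ± 0.10, limma adjusted p = 3.77e-04). Sdf2l1, a partner of BiP that keeps client proteins soluble, had 44.5, 48.7 and 51.8 FPKM in Notch1-titled and 17.8, 20.1 and 19.3 FPKM in control libraries (1.30 ± 0.12). For both genes every Notch1-titled library lay well above every control library. The disulfide isomerase Pdia6 rose by 0.94 ± 0.07, the secreted factor Creld2 by 0.85 ± 0.14, the neurotrophic factor Manf by 0.79 ± 0.07 and the nucleotide exchange factor Hyou1 by 0.78 ± 0.08. Among the chaperones of highest level, Calr, the lectin chaperone calreticulin, rose by 0.55 ± 0.08 and Hsp90b1 (GRP94) by 0.75 ± 0.08.

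The 2 tested members of the ER list with a negative estimate were Atf6 and Ern1, which encode sensors of the response. Both were named with their values in view. Atf6, the membrane-bound transcription factor whose cleavage turns on ER chaperones, was the member that fell, with 17.9, 17.3 and 14.7 FPKM in Notch1-titled and 28.2, 26.9 and 27.0 FPKM in control libraries (-0.69 ± 0.09, limma adjusted p = 0.00133). Ern1, which encodes the kinase and nuclease IRE1 that splices Xbp1 RNA, had 4.07, 4.87 and 2.42 FPKM in Notch1-titled and 6.05, 7.26 and 7.4 FPKM in control libraries. It did not pass (-0.75 ± 0.20, limma adjusted p = 0.0597), though it did without Notch1-titled replicate 2 (0.0432) or Zmiz1-titled replicate 2 (0.0285), under quantile normalization (0.0447), with robust variances (0.0404), without short noncoding genes (0.0338) and with a replicate block (0.0289). Xbp1, the transcription factor downstream of IRE1, rose (0.73 ± 0.07), with 92.0, 92.8 and 104 FPKM in Notch1-titled and 57.4, 58.4 and 56.1 FPKM in control libraries. FPKM per gene does not show splicing.

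Folding genes outside the ER gave no such pattern, though 0 called of 19 is near the 5.49% called over all tested genes. Of 19 tested cytosolic and mitochondrial chaperone genes, limma called 0 in either direction (4 had an unadjusted p under 0.05, and 1 rose without Zmiz1-titled replicate 2 or without the filter and 1 fell under quantile normalization), and their median was 0.02, though -0.01 under median ratio scaling and -0.02 under quantile normalization. Hspa8, the constitutive HSP70, had 645, 709.6 and 653 FPKM in Notch1-titled and 716, 759.8 and 712 FPKM in control libraries. Hsp90ab1, the constitutive HSP90, had 698, 792 and 725 FPKM in Notch1-titled and 596, 646 and 642 FPKM in control libraries. Neither difference passed (-0.12, limma adjusted p = 0.298, and 0.23, limma adjusted p = 0.0821). The ER stress element printed above occurred in 0.119% of all promoter windows (39 of 32851) and in 37 of 27025 genes. It was present in 10 of the 27 members of the ER list with a RefSeq window (37%), 9 of which rose and 1 of which, Derl3, lay under the filter. It was found in 0 of 15 windows of the cytosolic and mitochondrial list.

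**Figure D2:**
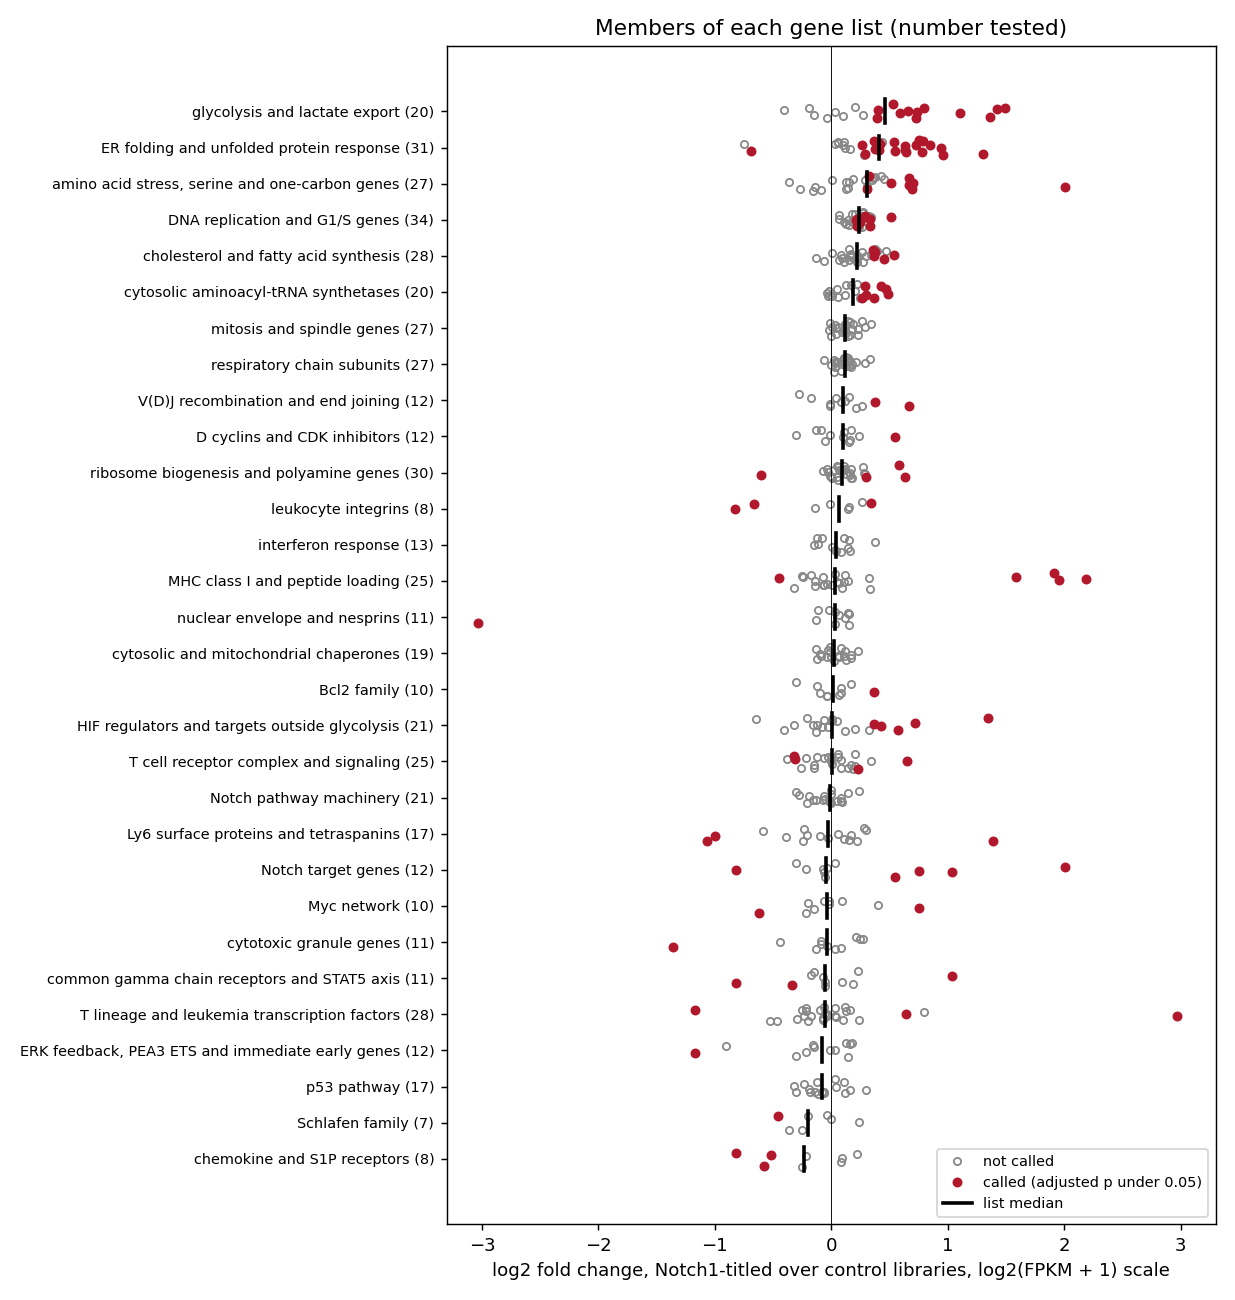
Log2 fold change (Notch1-titled over control, log2(FPKM + 1) scale, linear axis) of each tested member of 30 gene lists, 1 point a gene, ordered by list median (black bar); red points passed an adjusted p under 0.05. Right of 0 lie 16 of 20 glycolysis, 29 of 31 ER folding and 22 of 27 amino acid genes, with medians of 0.47, 0.41 and 0.31.

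Genes of amino acid supply rose too, led by Asns, the asparagine synthetase, which had 10.4, 9.41 and 11 FPKM in Notch1-titled libraries, against 1.93, 2.12 and 1.39 FPKM in control libraries (2.01 ± 0.10, limma adjusted p = 1.04e-06). Serine and one-carbon enzymes followed at smaller size. Mthfd2, a mitochondrial folate enzyme, had 35.5, 37.1 and 38.6 FPKM in Notch1-titled and 23.3, 21.5 and 22.6 FPKM in control libraries (0.70 ± 0.07). Shmt2, the mitochondrial serine hydroxymethyltransferase, rose by 0.69 ± 0.05, Phgdh, the first enzyme of serine synthesis, by 0.67 ± 0.09, and Psat1, the next one, by 0.51 ± 0.06. Slc7a5, the large neutral amino acid transporter, had 38.3, 36.7 and 34.1 FPKM in Notch1-titled and 23.6, 21.8 and 22.2 FPKM in control libraries (0.67 ± 0.07). Atf4, the transcription factor of this program, rose by only 0.31 ± 0.07 (limma adjusted p = 0.0222, but 0.0863 or 0.103 when control replicate 1 or 2 was left out and 0.0991 with only the 2 groups in the fit). Trib3, a feedback target of ATF4, was not called (0.36 ± 0.14, limma adjusted p = 0.197), but was without Zmiz1-titled replicate 2 (adjusted p = 0.02). Chac1, a glutathione-degrading target of ATF4 that lies under the filter, had 1.18, 1.05 and 1.46 FPKM in Notch1-titled and 0.267, 0.255 and 0.198 FPKM in control libraries and was called in the fit without the filter (limma adjusted p = 0.00881).

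In all 8 of 27 tested members of the amino acid list rose, against 3.19% of all tested genes, and the other 19 were not called. The list's median was 0.31, and 14 rose and 1 fell without Zmiz1-titled replicate 2. Under either other scaling, with robust variances or without short noncoding genes 1 fell. Of 20 cytosolic aminoacyl-tRNA synthetases, which charge tRNAs and include known ATF4 targets, 7 rose and 13 were not called, with a median of 0.19. That count dropped to 4 without Notch1-titled replicate 2, and to 3, 3 or 4 when control replicate 1, 2 or 3 was left out. Aars, the alanine enzyme, had 32.2, 34.2 and 29.9 FPKM in Notch1-titled and 21.6, 22.1 and 23.8 FPKM in control libraries (0.49 ± 0.07). Nars and Sars, the asparagine and serine enzymes, rose by 0.37 ± 0.05 and 0.29 ± 0.05. TGATGAAA occurred in 1.02% of all promoter windows and in 1 of 28 windows of the amino acid list, that of Asns. The related form TGATGCAA occurred in 0.895% of all windows, in 7 of 28 windows of the amino acid list, none of them of a tested member that rose, and in 4 of 13 windows of the synthetases.

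Glycolytic enzymes rose together. Of 20 tested genes from glucose uptake to lactate export, 12 rose and 8 were not called (limma; 1 fell without Notch1-titled replicate 3 or Zmiz1-titled replicate 2, under either other scaling, with robust variances or without short noncoding genes), and their median was 0.47. The largest changes among the enzymes were those of Tpi1, Aldoa and Pgk1, which act at or after the splitting of the sugar. Tpi1, the triosephosphate isomerase, had 99.4, 116 and 123 FPKM in Notch1-titled libraries, against 37.4, 40.4 and 40.5 FPKM in control libraries (1.49 ± 0.11, limma adjusted p = 3.00e-05). Aldoa, the aldolase of the step before it, had 177, 194 and 209.8 FPKM in Notch1-titled and 74.0, 76.9 and 73.1 FPKM in control libraries (1.36 ± 0.09). Pgk1, phosphoglycerate kinase, had 374, 368 and 379.6 FPKM in Notch1-titled and 175, 177 and 166 FPKM in control libraries (1.11 ± 0.06). For each of these 3 genes the lowest Notch1-titled library stood more than 2-fold above the highest control library. Later steps moved less. Pkm2, pyruvate kinase, rose by 0.80 ± 0.08, Pgam1 by 0.66 ± 0.06, Eno1 by 0.59 ± 0.06 and Ldha, lactate dehydrogenase A, by 0.53 ± 0.06.

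The entry to the pathway was different. Slc2a1, a widely expressed glucose transporter, had 10.0, 9.88 and 9.99 FPKM in Notch1-titled and 10.0, 10.2 and 10.5 FPKM in control libraries (-0.04 ± 0.06, limma adjusted p = 0.795). Its groups were almost the same in level. Phosphofructokinase, the committed step, rose through its liver and platelet genes, Pfkl (0.73 ± 0.08) and Pfkp (0.74 ± 0.12). Export of lactate was split between its carriers. Slc16a3 (MCT4), a carrier of glycolytic cells, had 9.12, 9.75 and 9.73 FPKM in Notch1-titled and 3.01, 2.76 and 3.08 FPKM in control libraries (1.42 ± 0.15), while the more abundant Slc16a1 (MCT1) had 127, 102 and 106 FPKM in Notch1-titled and 140.3, 115 and 115 FPKM in control libraries and was not called (-0.15 ± 0.12).

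**Figure D3:**
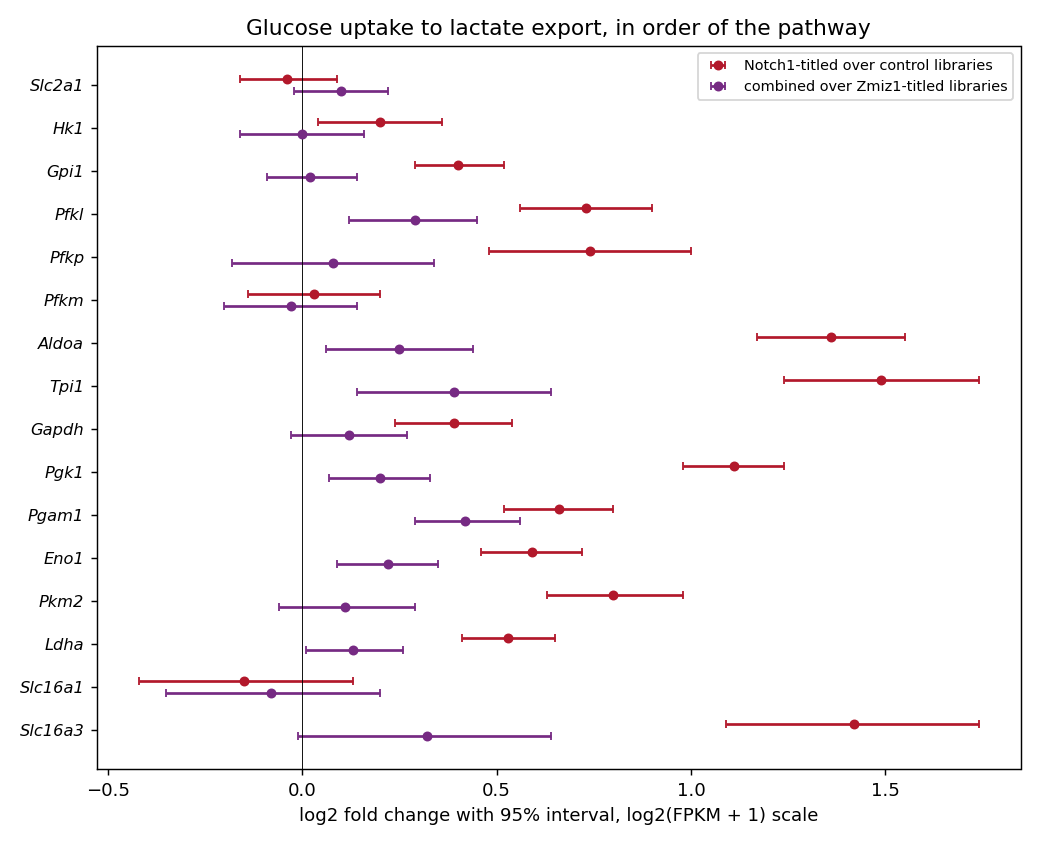
Log2 fold change with its 95% interval (limma, log2(FPKM + 1) scale) for 16 genes in pathway order from top to bottom, for Notch1-titled over control libraries (red) and combined over Zmiz1-titled libraries (purple). Aldoa is at 1.36 without Zmiz1 and 0.25 with it, while Slc2a1 is near 0 in both.

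Genes of the hypoxia response outside glycolysis were divided. Of 21 tested, 5 rose, against 3.19% of all tested genes, and 16 were not called (limma). Without Zmiz1-titled replicate 2 or with only the 2 groups in the fit 2 fell. The median was 0.01, though -0.03 under median ratio scaling and -0.06 under quantile normalization. Bnip3, a mitophagy receptor and target of hypoxia-inducible factor (HIF), had 22.7, 19.3 and 20.1 FPKM in Notch1-titled and 7.52, 7.85 and 7.15 FPKM in control libraries (1.35 ± 0.15, limma adjusted p = 4.21e-04). Egln1, a prolyl hydroxylase that marks HIF for degradation and is itself a target, rose by 0.72 ± 0.05, and Vegfa, a vascular growth factor, by 0.43 ± 0.07. Other targets did not follow. Egln3, a sister enzyme, had 29.5, 29.2 and 29.9 FPKM in Notch1-titled and 34.2, 32.3 and 31.1 FPKM in control libraries and was not called (-0.13 ± 0.08). Pdk1, which keeps pyruvate from the mitochondria, was at -0.19 ± 0.14 and was not called. Adm, adrenomedullin, had 4.61, 5.69 and 5.9 FPKM in Notch1-titled and 8.73, 9.02 and 9.28 FPKM in control libraries, and whether it was called turned on the libraries of the other groups (limma adjusted p = 0.0882, against 7.27e-04 without Zmiz1-titled replicate 2 and 0.0146 with only the 2 groups in the fit). The core ACGTG of hypoxia response elements was found in 21.8% of genes with a promoter window, in 14 of 23 glycolysis genes (60.9%, 7 of the 12 that rose) and in 14 of 21 of the other HIF genes (66.7%, all 5 that rose).

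Most glycolysis genes that rose in Notch1-titled libraries were not called where the mutant came with Zmiz1, and the difference of effects was called for 3 of them. Aldoa had 78.7, 83.5 and 74.4 FPKM in combined libraries and 70.0, 58.2 and 70.1 FPKM in Zmiz1-titled libraries (0.25, limma adjusted p = 0.156). Pgk1 had 193, 203 and 185 FPKM in combined and 178, 159 and 168 FPKM in Zmiz1-titled libraries (0.20, limma adjusted p = 0.0935). In both genes the combined libraries lay near the control and far below the Notch1-titled ones. The difference between the effect with and without Zmiz1 was called for Aldoa (-1.10 ± 0.12 SE, limma adjusted p = 0.00633) and Pgk1 (-0.91 ± 0.08, limma adjusted p = 0.0019), where 0.069% of tested genes were called. It was also called for Tpi1 (-1.10 ± 0.16, limma adjusted p = 0.0464), but that call was lost without any 1 library other than Notch1-titled replicate 1 and Zmiz1-titled replicate 2. Its adjusted p was then 0.175 and 0.155 (Notch1-titled replicates 2 and 3), 0.199, 0.138 and 0.155 (control replicates 1, 2 and 3), 0.168, 0.0823 and 0.191 (combined replicates 1, 2 and 3) and 0.148 and 0.0952 (Zmiz1-titled replicates 1 and 3). It was 0.0622 with a pseudocount of 0.1, 0.0613 with the filter at 5 FPKM, 0.0687 under quantile normalization and 0.076 with a replicate block. In the comparison of combined with Zmiz1-titled libraries 1 of the 20 tested glycolysis genes rose, Pgam1 (0.42), where 2.67% of all genes rose, and the list's median was 0.12.

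**Figure D4:**
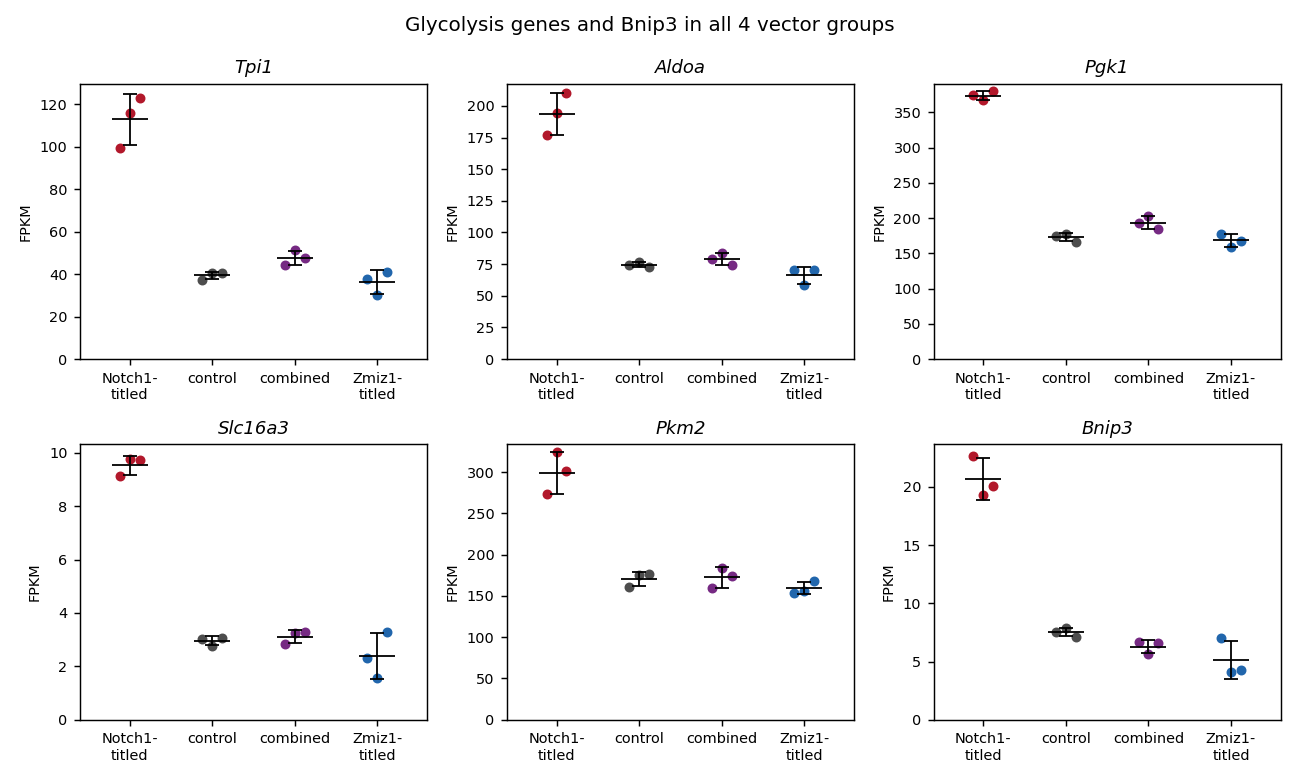
FPKM (linear axis from 0) of 5 glycolysis genes and Bnip3 in each library of the 4 groups, with the mean ± SD of 3 libraries. The 3 Notch1-titled libraries stand above all others in each panel, for instance 177 to 209.8 FPKM for Aldoa against at most 83.5 in the other groups.

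A cluster of nonclassical MHC class I genes on chromosome 17 was among the strongest risers. H2-T3, which encodes the thymus leukemia antigen, had 55.8, 64.8 and 65.8 FPKM in Notch1-titled libraries, against 10.9, 13.6 and 14.1 FPKM in control libraries (2.19 ± 0.13, limma adjusted p = 3.42e-06). H2-T22, a ligand of some gamma-delta T cell receptors, had 27.7, 30.8 and 28.5 FPKM in Notch1-titled and 6.15, 7.54 and 6.49 FPKM in control libraries (1.96 ± 0.10). H2-T10, its close relative, had 50.5, 55 and 61.2 FPKM in Notch1-titled and 17.8, 17.9 and 17.5 FPKM in control libraries (1.59 ± 0.07), and H2-Bl rose by 1.91 ± 0.10. The 4 genes lie on the minus strand of GRCm38 chromosome 17 between 36037128 and 36190287, with H2-Bl and H2-T10 annotated as polymorphic pseudogenes. A predicted gene among them, Gm8909, rose by 0.95 ± 0.12, and 2 further predicted genes in the interval were not called (-0.09 and -0.22). These genes are near-identical in sequence over long stretches, so the division of reads among them is uncertain. H2-T10 also overlaps one of the uncalled predicted genes, and the library kit keeps no strand.

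Classical MHC class I genes did not rise with them. H2-K1 and H2-D1, which present peptides to CD8 T cells, were at -0.14 ± 0.12 and -0.25 ± 0.11, and B2m, the shared light chain, was at 0.32 ± 0.09. None of these was called (limma adjusted p = 0.601, 0.234 and 0.0817), and B2m was called without Notch1-titled replicate 2 (0.0298). H2-Q1 and H2-Q2, annotated class I genes of the Q region, were the most abundant of the list, at 2234 to 2575 and 1617 to 2110 FPKM in Notch1-titled and 2777 to 2809 and 2083 to 2546 FPKM in control libraries, and neither was called, H2-Q1 only without Zmiz1-titled replicate 2 (0.0297). H2-Q8 fell (-0.45 ± 0.10, limma adjusted p = 0.0296). That call was lost without Notch1-titled replicate 1, 2 or 3 (0.078, 0.0705 and 0.0678), control replicate 2 or 3 (0.121 and 0.114) or combined replicate 2 (0.0508). Of the 25 tested class I and peptide loading genes, 4 rose and 1 fell, against 3.19% and 2.3% of all tested genes. Their median was 0.03, though -0.01 under median ratio scaling and -0.03 under quantile normalization.

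Mecom was nearly silent in control libraries and rose in Notch1-titled ones. It encodes EVI1, a zinc finger factor of blood stem cells and an oncogene of myeloid leukemia. Mecom (GRCm38 chromosome 3, 29951296 to 30548008, minus strand) had 10.9, 11.7 and 10.7 FPKM in Notch1-titled libraries, against 0.52, 0.533 and 0.586 FPKM in control libraries, a ratio of means of 20.3 (log2 fold change 2.97 ± 0.08, limma adjusted p = 1.88e-08). None of its 12 nearest tested neighbours on the chromosome, 6 on each side, was called, and their smallest limma adjusted p was 0.379. Of all tested genes 5.49% were called, so 0 of 12 is near that share. Where Zmiz1 was present the gene had 11.9, 11.7 and 12.6 FPKM in combined and 0.796, 0.658 and 0.441 FPKM in Zmiz1-titled libraries (3.00).

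Syne1 was its counterpart among falling genes. It encodes nesprin-1, a large spectrin repeat protein that ties the nuclear envelope to the cytoskeleton. Syne1 (GRCm38 chromosome 10, 5020917 to 5551482, minus strand) had 0.042, 0.0159 and 0.0116 FPKM in Notch1-titled libraries, against 6.27, 8.21 and 7.72 FPKM in control libraries (-3.03 ± 0.20, limma adjusted p = 8.57e-06). It was the sole gene under 0.5 FPKM in one group and at 3 FPKM or more in the other, with predicted and short noncoding genes passed over. None of its 10 nearest tested neighbours was called (smallest limma adjusted p = 0.0684), and no other gene among the 11 tested of the nuclear envelope list was. Both counts are near the share over all tested genes, of which 5.49% were called. With Zmiz1 it had 0.055, 0.0286 and 0.0271 FPKM in combined and 6.46, 13.5 and 7.71 FPKM in Zmiz1-titled libraries.

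Among cytotoxic granule, chemokine receptor and S1P receptor genes a few fell and most were not called. Gzma, the serine protease granzyme A, had 227, 246 and 279 FPKM in Notch1-titled libraries, against 635, 686 and 611 FPKM in control libraries (-1.36 ± 0.08, limma adjusted p = 3.73e-06). It was the sole called gene among 11 tested granule genes (limma, with 1 rising without Zmiz1-titled replicate 2), where 2.3% of all tested genes fell. The list's median was -0.04, and 5 of the 11 had a positive estimate. Prf1, the pore protein perforin, was at 2.23, 2.61 and 2.43 FPKM in Notch1-titled and 1.88, 2.05 and 1.96 FPKM in control libraries without a call (0.21, limma adjusted p = 0.204). The granule protease Ctsw was not called in the full fit (-0.44, limma adjusted p = 0.062), but it was without Zmiz1-titled replicate 1, 2 or 3 (0.0116, 0.0478 and 0.0488), under median ratio scaling (0.0477) or quantile normalization (0.0478), with only the 2 groups in the fit (0.0389), with robust variances (0.0472), without short noncoding genes (0.042) and with a replicate block (0.0476). Of 8 tested chemokine and S1P receptor genes 3 fell, against 2.3% of all tested genes, and 5 were not called (limma), with a median of -0.23. Ccr9, the gut-homing chemokine receptor of thymocytes, had 1.7, 1.77 and 1.68 FPKM in Notch1-titled and 3.96, 3.86 and 3.55 FPKM in control libraries (-0.82 ± 0.12). Ccr7, the lymph node receptor, fell by 0.58 ± 0.06 on the log2 scale and S1pr4, a sphingosine-1-phosphate receptor, by 0.52 ± 0.08. Cxcr4, the receptor for the marrow chemokine CXCL12 and the most abundant of the group, had 331, 278 and 308 FPKM in Notch1-titled and 328, 279 and 259 FPKM in control libraries and was not called (0.08 ± 0.13). With the filter at 5 FPKM 4 of the list were tested, of which 1 fell, and their median was -0.07, while with a pseudocount of 0.1 the median of the 8 was -0.41.

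Other surface genes changed in both directions. Ly6c1, a glycolipid-anchored protein of memory-type T cells, had 228, 215 and 257 FPKM in Notch1-titled and 528, 482 and 463 FPKM in control libraries (-1.07 ± 0.09), whereas its relative Ly6d, a marker of early lymphoid cells, had 29.0, 33.3 and 38.3 FPKM in Notch1-titled and 11.1, 14.1 and 11.3 FPKM in control libraries (1.39 ± 0.12). These 2 members of 1 gene family thus moved apart. Cd53, a leukocyte tetraspanin, had 0.447, 0.353 and 0.344 FPKM in Notch1-titled and 2.58, 1.37 and 1.49 FPKM in control libraries (-1.0 ± 0.17). Itgam, the integrin chain CD11b that is known from myeloid cells, had 58.2, 58.0 and 50.9 FPKM in Notch1-titled and 98.9, 97.7 and 102 FPKM in control libraries (-0.83 ± 0.06). The 8 other myeloid markers, lysozyme and myeloperoxidase genes among them, were under the filter. P2rx1, an ATP-gated ion channel, had 47.9, 48.7 and 53.1 FPKM in Notch1-titled and 17.6, 17.8 and 18.6 FPKM in control libraries (1.42 ± 0.06).

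Among transcription factors of the T lineage and of leukemia, 28 were tested. Besides Mecom, Id1 was called upward, and Etv5 was the one that fell. Etv5, a factor of the PEA3 group of ETS proteins, had 33.6, 31.6 and 30.2 FPKM in Notch1-titled libraries, against 74.1, 72.5 and 71.9 FPKM in control libraries (-1.17 ± 0.06, limma adjusted p = 1.04e-06). Id1, an inhibitor of E proteins, had 4.19, 5.99 and 5.84 FPKM in Notch1-titled and 2.73, 3.28 and 3.1 FPKM in control libraries (0.64 ± 0.13, limma adjusted p = 0.0173), and it lost its call without Notch1-titled replicate 2 or 3 (0.0661 and 0.0656) or control replicate 1 or 3 (0.0726 and 0.0581), and with only the 2 groups in the fit (0.0508). Ets2, another ETS factor, differed by more than the spread of either group, with 146, 147 and 149 FPKM in Notch1-titled and 85.3, 83.5 and 84.4 FPKM in control libraries. It was nevertheless not called (0.80 ± 0.25, limma adjusted p = 0.104), while without Zmiz1-titled replicate 2, which had 162 FPKM against 69.2 and 69.7 in the other Zmiz1-titled libraries, it was (3.79e-06), as it was with only the 2 groups in the fit (7.27e-04). Id3, an E protein inhibitor downstream of the pre-T cell receptor, behaved likewise at lower contrast, with 90.5, 103 and 122 FPKM in Notch1-titled and 142, 144 and 147 FPKM in control libraries (-0.47, limma adjusted p = 0.274, and 0.013 without Zmiz1-titled replicate 2). Without that library 4 members of the list fell.

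Of 25 tested genes of the receptor complex and its signaling, 2 rose and 2 fell, against 3.19% and 2.3% of all tested genes. Only 1 rose with only the 2 groups in the fit, and 1 fell without control replicate 2 or 3. Their median was 0.01, though -0.02 under median ratio scaling and -0.06 under quantile normalization. Cd6, a costimulatory scavenger receptor, had 24.8, 27.9 and 26.4 FPKM in Notch1-titled and 14.6, 17.2 and 17.5 FPKM in control libraries (0.65 ± 0.09), and Cd8a had 754, 750.2 and 767 FPKM in Notch1-titled and 644, 647 and 649.7 FPKM in control libraries (0.23 ± 0.04, limma adjusted p = 0.00918, but 0.0809 under quantile normalization and 0.0955 with only the 2 groups in the fit). The adaptor Lcp2 (SLP-76) fell by 0.32 ± 0.05 on the log2 scale. The kinase Prkcq was the other that fell (-0.31 ± 0.06, limma adjusted p = 0.0111), but not without control replicate 2 or 3 (0.0585 and 0.0636). Rag2, a subunit of the recombinase that assembles receptor genes, had 25.7, 23.9 and 25.3 FPKM in Notch1-titled and 16.4, 14.8 and 14.9 FPKM in control libraries (0.67 ± 0.12, limma adjusted p = 0.0103, and 0.052 without control replicate 2). Of 11 tested genes of the common gamma chain receptors and the STAT5 axis, 1 rose and 2 fell, with a median of -0.05. Beside Il7r, the kinase Jak1 fell by 0.34 ± 0.06 on the log2 scale and Socs3, an inhibitor of cytokine signaling, had 4.18, 4.66 and 4.66 FPKM in Notch1-titled and 1.81, 1.32 and 1.89 FPKM in control libraries (1.04 ± 0.14).

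The cell division program shifted by small amounts. All 34 tested DNA replication and G1/S genes had a positive fold change, with a median of 0.23. Of these 9 rose, against 3.19% of all tested genes, but the count rested on single libraries. It dropped to 4 without Notch1-titled replicate 2 and to 3, 1 or 2 when control replicate 1, 2 or 3 was left out, it was 2 with only the 2 groups in the fit, and it reached 19 without Zmiz1-titled replicate 2. Tk1, the thymidine kinase of S phase, had 101, 113 and 123 FPKM in Notch1-titled and 75.9, 79.4 and 79.8 FPKM in control libraries (0.51 ± 0.07, limma adjusted p = 0.00232). Of 27 mitosis genes 0 were called with limma, which is near the share of 5.49% over all tested genes. Their median was 0.12, and 5 had an unadjusted p under 0.05. When Notch1-titled replicate 1 was left out 1 rose, and 3 rose without Zmiz1-titled replicate 2. Birc5 (survivin), a mitotic and survival factor, was at 0.34 ± 0.10 (limma adjusted p = 0.0861, and 0.0278 without Notch1-titled replicate 1).

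Few growth genes that are known to follow Myc were called. Of 30 tested ribosome biogenesis and polyamine genes 3 rose and 1 fell, against 3.19% and 2.3% of all tested genes, with a median of 0.10. The 3 became 1 without Notch1-titled replicate 2 or any 1 of the control libraries, 1 with only the 2 groups in the fit, and 5 without Zmiz1-titled replicate 2. Bysl, a factor of small ribosomal subunit assembly, had 66.3, 67.1 and 89.9 FPKM in Notch1-titled and 48.7, 48.9 and 48.9 FPKM in control libraries (0.58 ± 0.10, with a limma adjusted p of 0.0541 when only the 2 groups were in the fit), and Wdr12, a factor of the large subunit, fell, with 36.9, 34.1 and 36.1 FPKM in Notch1-titled and 56.2, 55.3 and 52.5 FPKM in control libraries (-0.60 ± 0.07). These factors of ribosome assembly went in opposite directions, while 25 of the 30 genes had a positive estimate. Of 28 tested cholesterol and fatty acid genes 5 rose, against 3.19% of all tested genes, and 23 were not called (limma), with a median of 0.22. The 5 became 2 or 3 when Notch1-titled replicate 2 or 3 was left out, 3, 1 or 1 for control replicate 1, 2 or 3, and 9 for Zmiz1-titled replicate 2. Nuclear-encoded respiratory chain subunits (27 tested, median 0.12, but 0.06 without Notch1-titled replicate 3 and 0.04 under quantile normalization), p53 pathway genes (17, median -0.08) and interferon response genes (13, median 0.04) had 0 called members with limma, and 4, 2 and 1 of them had an unadjusted p under 0.05. Over all tested genes 5.49% were called, so 0 of 27, 0 of 17 and 0 of 13 are near that share. Of the respiratory genes 1 rose without Zmiz1-titled replicate 2 or without short noncoding genes, and of the p53 genes 1 fell under quantile normalization.

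Further genes among the largest changes belong to no list. Of those that rose, Spsb4, a substrate receptor of a ubiquitin ligase, had 11.1, 11.7 and 13.4 FPKM in Notch1-titled and 4.15, 3.86 and 3.74 FPKM in control libraries (1.41 ± 0.15), Cox6a2, the muscle form of a cytochrome oxidase subunit, rose by 1.43 ± 0.17 and Dennd2d, an exchange factor for Rab proteins, by 1.39 ± 0.11. Of those that fell, Plac8, a small cysteine-rich protein, had 8.78, 8.29 and 9.52 FPKM in Notch1-titled and 25.2, 25.7 and 22.8 FPKM in control libraries (-1.37 ± 0.07). Cacna1b, a calcium channel subunit, fell by 1.10 ± 0.18 on the log2 scale, Actn2, an alpha-actinin, by 0.96 ± 0.14, Itm2a, a membrane protein induced during thymic selection, by 0.93 ± 0.14, and Slc6a19, a neutral amino acid transporter, by 0.92 ± 0.10. Gadd45g, a stress sensor and activator of MAP kinases, had 34.5, 35.9 and 41.6 FPKM in Notch1-titled and 65.3, 72.5 and 72.6 FPKM in control libraries (-0.89 ± 0.10), and Inpp4b, a phosphoinositide phosphatase, was at -0.85 ± 0.12. Alox5ap, which supports leukotriene synthesis, Sh3bgrl2 and Lztfl1, a regulator of ciliary traffic, were at -0.87 ± 0.11, -0.92 ± 0.11 and -0.85 ± 0.13.

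The combined and Zmiz1-titled libraries, none of which enter the first comparison, gave a second measure of the mutant. It is independent in its libraries, but whether the mutant cells were transduced separately is not stated. Of the 557 genes called without Zmiz1, 550 (98.7%) had an estimate of the same sign in combined against Zmiz1-titled libraries. There 392 genes were called (3.86%), and 246 were called in both, all in the same direction, which is 44.2% of the 557 and 62.8% of the 392. Leaving out combined replicate 1, 2 or 3 reduced the 392 to 247, 183 or 184. Both comparisons were fitted together and share a variance estimate. Genes that rose without Zmiz1 had a median log2 fold change of 0.34 with it and 0.43 without it, and genes that fell had -0.28 with it and -0.41 without it. These genes were chosen by their call without Zmiz1, which favours larger values there. The medians therefore cannot show whether the effect was weaker with Zmiz1. Asns (2.20 with and 2.01 without Zmiz1), H2-T3 (2.67 and 2.19), Hspa5 (1.42 and 0.96), Trib2 (1.04 and 1.04) and Gzma (-1.0 and -1.36) were called in both. Of the 31 ER genes 21 rose and 1 fell with Zmiz1 (2.67% and 1.19% of all genes), with a median of 0.54. Of the 20 synthetases 10 rose. Among the 34 DNA replication genes 0 rose with Zmiz1 and 9 without it (medians 0.09 and 0.23). Among the 28 cholesterol and fatty acid genes 1 and 5 rose (0.13 and 0.22). For the 21 hypoxia genes outside glycolysis the counts were 2 and 5 (-0.05 and 0.01). The mitosis genes had medians of -0.02 and 0.12. Of the 19 cytosolic and mitochondrial chaperone genes 4 rose with Zmiz1 and 0 without it (0.10 and 0.02). The Notch targets Ptcra, Dtx1 and Notch3 had smaller estimates with Zmiz1, with 2.28, 2.22 and 1.96 FPKM for Ptcra in combined and 0.286, 0.602 and 0.466 FPKM in Zmiz1-titled libraries (1.12 with and 2.01 without Zmiz1). The difference of effects was not called for Ptcra (-0.89, limma adjusted p = 0.305) and was in the fit without the filter for Dtx1 (-0.81, limma adjusted p = 0.00262) and Notch3 (-0.85, limma adjusted p = 0.031).

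**Figure D5:**
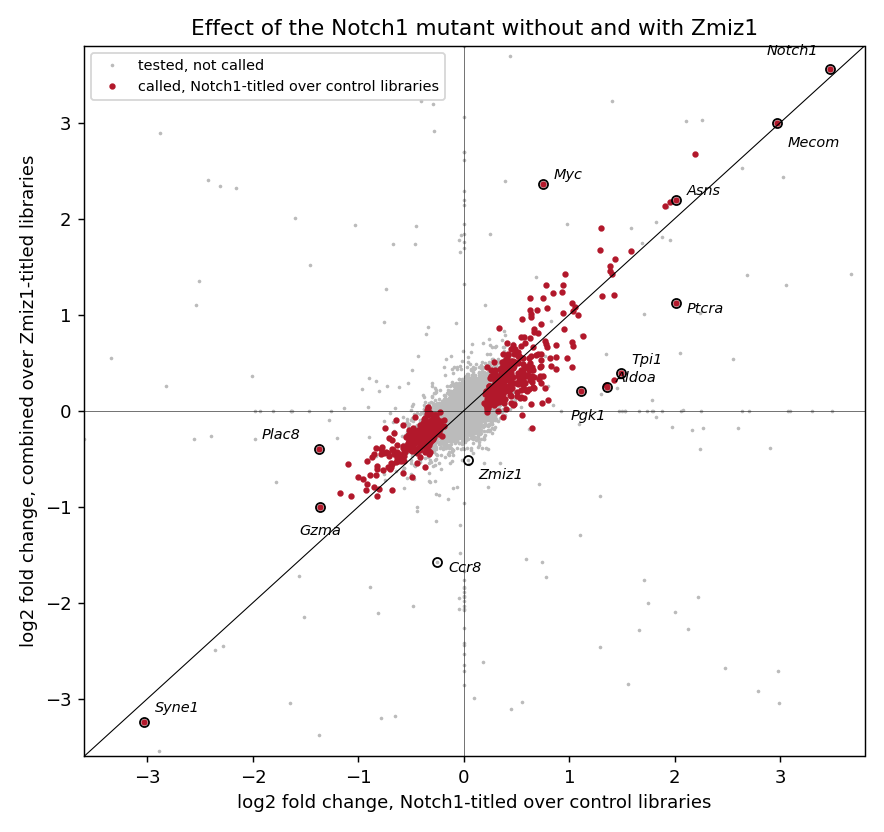
Log2 fold change of each tested gene in Notch1-titled over control libraries (horizontal) and in combined over Zmiz1-titled libraries (vertical), both linear axes on the log2(FPKM + 1) scale, with the line of equal change; red points were called without Zmiz1, circled genes are named, and 23 genes lie outside the axes. Mecom and Asns lie close to the line, at 2.97 and 3.00 and at 2.01 and 2.20, Aldoa and Pgk1 below it, and Myc above it at 0.75 and 2.36.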

How the data were processed

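RNA of 12 libraries (4 groups of 3) was sequenced after TruSeq mRNA v2 preparation, per the labels' protocols, a kit that keeps no strand. The deposited values are FPKM per gene symbol and library, per the file headers, and the submitters' processing notes name build mm10, the aligners TopHat2 (2.0.9) and Bowtie2 (2.1.0.0), Cufflinks with Cuffdiff (2.1.1), and FastQC (0.10.0), without settings. Scaling between libraries and the annotation are not given in the sources used here. The precision of low genes is known in relative terms only: 68.1% of low values lay within 0.1 of a whole multiple of a step, too few to recover reads, so no counting interval is given.

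Here, log2(FPKM + 1) of genes whose mean reached 1 FPKM was fitted in 1 limma 3.58.1 model (R 4.3.3) of the 4 group means with an intensity trend. The tests were two-sided, adjusted over all tested genes at a threshold of 0.05. Errors on fold changes are SE of the fit with 3 libraries a group, and fold changes of genes near 1 FPKM understate the ratio. The smallest p of an exact permutation test with 3 and 3 libraries is 0.1. The pipeline was tested on simulated data.

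The members and the 36 gene lists were chosen with earlier results of these data known. Named genes were the 15 largest called rises and 15 largest falls without overlap of libraries (predicted and short noncoding genes passed over), genes under 0.5 FPKM in one group and at 3 or more in the other, up to 6 members of each list by change and 3 by level, and Notch1, Zmiz1, Ngfr, Hes1, Dtx1, Nrarp, Notch3, Ptcra, Myc, Il2ra, Il7r, Trib2, Mecom and Syne1. Gata3, Pfkl, Pgam1, Eno1, Slc2a1, Slc16a1, Pdk1, Egln3, Chac1, Trib3, Hsp90b1, Dnajc3, Xbp1, Atf6, Ern1, Derl3, H2-K1, H2-D1 and Gm8909 do not come from this rule and were chosen with their values in view. Positions are from GENCODE M21 (GRCm38), where 90.1% of tested symbols had 1 position. Alternatives were a pseudocount of 0.1, no filter or a filter at 5 FPKM, median ratio scaling, quantile normalization, 2 groups only, a replicate block, robust variances, no short noncoding genes and each library left out. Figures were drawn with matplotlib 3.10.9 in Python 3.11.15.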

Additional observations from a re-analysis of the deposited data

Results flagged for a closer look

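For 7 of 10152 tested genes (0.069%) the effect of the Notch1 mutant with Zmiz1 differed from its effect without Zmiz1 by the limma test of that difference, which is what marked them for a closer look, and 332 genes had an unadjusted p under 0.05. The difference in log2 fold change, with minus without Zmiz1, was -1.10 for Aldoa, -0.91 for Pgk1 and -1.10 for Tpi1, enzymes of successive or near steps of glycolysis. It was 0.98 for Plac8, which had 10.9, 11.8 and 10.7 FPKM in combined and 14.8, 15.2 and 14.9 FPKM in Zmiz1-titled libraries. It was 1.61 for Myc, which had 5.91, 6.76 and 6.87 FPKM in combined and 0.285, 0.61 and 0.499 FPKM in Zmiz1-titled libraries. It was -1.33 for Ccr8, a chemokine receptor near 0 in the first comparison, with a mean of 0.243 FPKM in Notch1-titled, 0.478 in control, 3.78 in combined and 13.3 in Zmiz1-titled libraries. It was -0.56 for Zmiz1, the gene of the second vector (limma adjusted p = 0.0266), which had 47.6, 49.3 and 51.0 FPKM in combined and 70.3, 67.7 and 74.4 FPKM in Zmiz1-titled libraries. Calls for Aldoa, Pgk1 and Plac8 held under every alternative run. With a pseudocount of 0.1 the limma adjusted p was 1 for Myc, 0.535 for Ccr8, 0.0622 for Tpi1 and 0.0622 for Zmiz1. Under quantile normalization it was 0.325 for Ccr8, 0.0687 for Tpi1 and 1 for Zmiz1, and with the filter at 5 FPKM 0.0613 for Tpi1 and 0.105 for Zmiz1. It was 0.076 for Tpi1 with a replicate block, and for Zmiz1 0.0604 with robust variances and 0.0629 without short noncoding genes. The call for Tpi1 was also lost without any 1 library other than Notch1-titled replicate 1 and Zmiz1-titled replicate 2. For Zmiz1 the adjusted p was 0.068 or 0.0969 when Notch1-titled replicate 1 or 2 was left out, 0.107, 0.114 or 0.123 for control replicate 1, 2 or 3, 0.136, 0.106 or 0.0927 for combined replicate 1, 2 or 3, and 0.0941 or 0.0923 for Zmiz1-titled replicate 1 or 3.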

How the results depend on the processing

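The 557 genes called in Notch1-titled against control libraries were 560 with a pseudocount of 0.1, 600 without the filter and 388 with only the 2 groups in the fit. The replicate block gave 1059 calls (662 up, 397 down), and 721 against 392 with Zmiz1. The labels give the replicate numbers no shared origin. Deviations of same-numbered libraries correlated at -0.044, 0.021 and 0.041 between Notch1-titled and control libraries and at -0.018 to 0.112 between combined and Zmiz1-titled libraries. Over all 18 same-numbered pairs of libraries the range was -0.176 to 0.267, with 6 over 0.1. In 1 of the 6 pairs of groups, combined and control (0.084 to 0.267), all 6 libraries correlated best with their own number, which is a hint from the data and not the design. With the block 21 DNA replication, 13 amino acid and 9 cholesterol genes rose, as did 3 mitosis, 3 chaperone, 3 respiratory and 1 pathway machinery genes, and 2 glycolysis and 3 p53 genes fell. It also called B2m (limma adjusted p = 0.0367), Birc5 (0.0109), H2-D1 (0.0389), H2-Q2 (0.0268), Hsp90ab1 (0.0104) and Slc16a1 (0.0345). With 1 library left out the counts ran from 268 to 981, rising genes from 170 to 579 and falling genes from 98 to 402. With Zmiz1 the 392 calls were 155 with only its 2 groups and 183 to 504 with 1 library left out. The 7 genes with differing effects were 3 with a pseudocount of 0.1, 18 without the filter, 3 with the filter at 5 FPKM and 4 under quantile normalization, and 5 to 8 with 1 library left out; the cause was not tested. Zmiz1 in Notch1-titled against control libraries was -0.39 under quantile normalization, against 0.04. Of 2271 fold changes of named genes under these alternatives, 2217 kept their sign and their side of the threshold, 21 lost a call and 32 gained one, and 85 of 109 named genes changed neither. Genes under the filter were not tested with libraries left out, and the unknown depth limits what can be said of genes below 1 FPKM.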
